A study of Gallus gallus with 3 samples.

Results

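Muscle-lineage cells of the chicken forelimb were compared between embryonic day 4 (E4), when muscle progenitors populate the limb bud, and E6, when muscle masses and connective tissue (CT) rearrange. They were chosen by 5 genes, as the cells with at least 3 unique molecular identifiers (UMIs, each marking 1 captured mRNA copy) summed over PAX7, MYF5, TCF15, CDH15 and RBM24, among cells kept with at least 1000 UMIs and at most 10% mitochondrial UMIs at E4, and at least 700 UMIs and at most 17% at E6. This gave 63 of 5157 kept cells at E4 and 283 of 3929 at E6, 346 of 9086 in all. The study profiled single cells of whole wild-type forelimbs by droplet scRNA-sequencing at E4, E6 and E10, to follow muscle and CT cells. The forelimbs of 2 E4 embryos and of 3 E6 embryos were pooled into 1 library a stage, and no embryo can be told from another of its pool. Cells of 1 library are not replicates, so no test between stages was made, and every interval given is an exact 95% interval for counting error only.

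Limb muscle cells derive mostly from somites, while the study traces a small fraction of them to CT lineages. Precursors of somitic origin leave the somite, migrate into the limb bud and keep dividing there under factors such as EYA1 and PAX7. The myogenic regulatory factors MYF5, MYF6 and MYOD1 then commit them to muscle, and MYOG drives their terminal differentiation, when they leave the cell cycle, switch on contractile genes and fuse into myotubes. Multinucleated myotubes do not enter droplets, so only mononucleated cells were measured.

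The 2 libraries differed in depth and in W-linked UMIs. The matrices hold 22765180 UMIs at E4 and 15004113 at E6, and kept cells had a median of 3665 UMIs at E4 and 2312 at E6. Muscle-lineage cells were deeper, with medians of 5174 and 3406 UMIs, and held 330218 and 1018642 UMIs in all. Median mitochondrial percentages in them were 4.92% and 5.67%. Of the kept cells, 12 barcodes occurred at both stages, and 0 of them were muscle-lineage cells of both. A UMI of Wpkci-7, a gene of the W chromosome that only females carry, was found in 63 of 63 muscle-lineage cells at E4 and in 26 of 283 at E6 (99.9% and 14.0% of all kept cells). Wpkci-7, NIPBLL and SPIN1W were therefore left out, but stage and sex of the pooled embryos cannot be told apart. The 107 genes compared on the Z chromosome, of which males carry an extra copy, had a median log2 ratio of E6 to E4 of 0.43 in muscle-lineage cells, against -0.20 over 2692 autosomal genes.

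Muscle-lineage cells made up 1.22% of kept cells at E4 (0.940 to 1.56%) and 7.20% at E6 (6.41 to 8.06%). With every cell thinned to 1000 UMIs and shallower cells left out (0 at E4 and 282 at E6), a sum of 3 selecting UMIs was reached by 0.155% of cells at E4 and 2.52% at E6. The share was thus higher at E6 at equal depth too, but its size depended on depth and on the minimum. Among the selecting genes, RBM24 was at 323 CPM (UMIs per 1000000 UMIs of the cells summed) in E6 cells without a MYOD1 or MYOG UMI, 1017 with MYOD1 alone and 3719 with MYOG, whereas PAX7 was at 352, 273 and 65.1 and MYF5 at 162, 159 and 32.6. Since RBM24, PAX7 and MYF5 selected the cells, these levels describe the selection and test nothing.

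The 5 genes that selected the cells contributed unequally at the 2 stages. TCF15, a bHLH factor of the early somite, was found in 61 of 63 cells at E4 (96.8%) and made up 67.2% of the selecting UMIs, whereas at E6 it was found in 47.0% of the cells. RBM24, an RNA-binding protein that regulates muscle splicing, was found in 20.6% at E4 and in 71.4% at E6, where it made up 57.8% of the selecting UMIs. PAX7, the transcription factor of muscle progenitors, was found in 50.8% and 52.3%. CDH15, the muscle cadherin, was found in 28.6% and 44.5%, and MYF5, an early myogenic regulatory factor, in 15.9% and 32.2%. These shares describe the selection and test nothing. Without TCF15 in the sum, 17 cells would have been selected at E4 and 248 at E6, and without RBM24, 61 and 163.

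**Figure D1:**
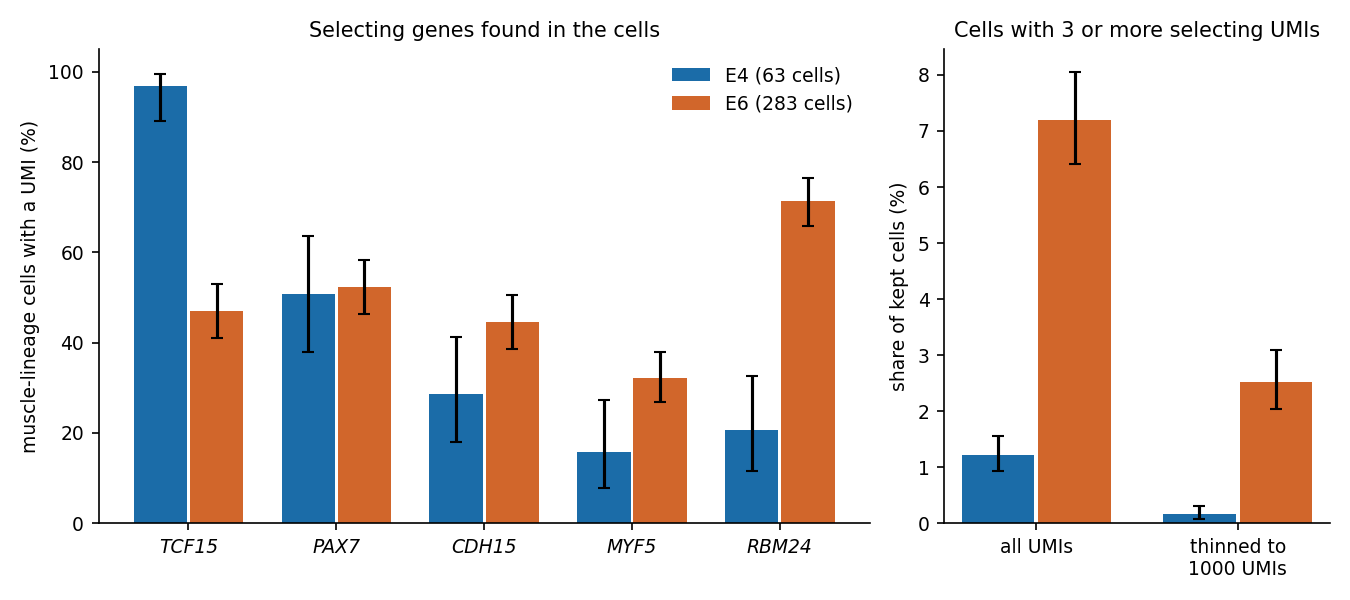
Left, percentage of muscle-lineage cells with a UMI of each selecting gene at E4 (blue, 63 cells) and E6 (orange, 283 cells); right, muscle-lineage cells as a percentage of kept cells, from all UMIs and after thinning each cell to 1000 UMIs; bars are percentages with exact binomial 95% intervals. TCF15 reached 96.8% at E4 and RBM24 71.4% at E6, and the share of kept cells was higher at E6 at both depths (7.20% against 1.22%, and 2.52% against 0.155%).

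At the minimum itself, 20 cells at E4 and 56 at E6 held exactly 3 selecting UMIs, and 51 and 77 held 2. FGFR4, a receptor of muscle progenitors outside the selection, was at 149 CPM (83.2 to 245) in the E4 cells with 3 selecting UMIs and at 75.9 (45.7 to 119) in those with 2. At E6 it was at 567 and 397. PRRX1, a homeobox factor of limb CT, was at 486 and 1051 CPM at E4, and at 244 and 237 at E6. The cells just outside the minimum at E4 were thus richer in PRRX1 than those just inside, while their intervals for FGFR4 met.

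FGFR4 and EYA1, muscle markers outside the selection, were higher in these cells than elsewhere at both stages. FGFR4 was at 177 CPM at E4 and 610 at E6, against 18.2 and 11.9 in the other cells, the kept cells without a selecting UMI (4662 and 3327). The phosphatase and coactivator EYA1 was at 107 and 93.3, against 8.31 and 8.63. Desmin, the muscle intermediate filament (DES), had only 4 UMIs at E4 and 9 at E6, and PAX3 and LBX1 were not analysed here. MYOD1, MYOG and SOX8 were low or absent at E4, as given below. The study lists FGFR4 and EYA1 among the markers of its E4 muscle cluster, drawn from the same library. Their E4 levels are thus not independent evidence of the lineage.

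CT transcripts were present but lower than in the other cells. PRRX1 was at 204 CPM at E4 and 209 at E6, against 1520 and 1044. At least 1 UMI of PRRX1, TWIST2, PDGFRA, OSR1 or SCX was found in 23 of 63 muscle-lineage cells at E4 (36.5%) and 115 of 283 at E6 (40.6%). The 14 CT markers summed to 1704 CPM at E4 and 2635 at E6, against 4431 and 6593. All 14 had a UMI at E6, and 2 of them, OSR1 and OSR2, had 0 at E4. Their part in the results below was not tested. Without the cells that held a UMI of those 5 markers, 67 of the 79 named genes that differed at least 2-fold with intervals apart still did so. Among them, the log2 ratio of E6 to E4 was 1.97 against 3.07 for NFIB and -4.39 against -2.32 for RDH10. The 79 include the selecting genes CDH15, MYF5, RBM24 and TCF15.

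Most markers of other limb cells had few UMIs. The haemoglobin genes summed to 6.09 CPM at E4 and 4.91 at E6, against 1982 and 572 in the other cells. Of 9 ectoderm markers, which summed to 33.5 and 18.7 against 57.4 and 55.5, 5 had 0 UMIs at E4 and 4 at E6. Of 10 cartilage markers, which summed to 76.1 and 68.7 against 283 and 140, 5 had 0 UMIs at E4 and 1 at E6, with SOX9 at 0 and 26 UMIs. These lists lay below the other cells at both stages, while the lists that follow lay above them at E4. Of 6 endothelial markers, which summed to 45.7 and 11.8 against 9.40 and 12.6, 2 had 0 UMIs at E4 and 4 at E6, with KDR at 5 and 0 UMIs. Of 5 neural crest and Schwann markers, which summed to 9.13 and 18.7 against 3.72 and 10.0, 4 had 0 UMIs at E4 and 2 at E6. Smooth muscle markers summed to 155 and 130 against 26.3 and 54.6, and the myosin light chain kinase MYLK gave 146 and 81.5 of these. Of the 6 leukocyte markers, which summed to 3.04 and 1.96 against 1.69 and 7.63, 5 had 0 UMIs at E4 and 4 at E6. Whether cells of these types contributed to the results below was not tested.

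Levels were compared for 3250 genes with a mean of at least 50 CPM over both stages. A gene was counted when its levels differed at least 2-fold and their intervals were apart. At E6, 126 genes were higher (3.88% of those compared) and 104 were lower (3.2%). Among them are selecting genes, CDH15, MYF5 and RBM24 higher and TCF15 lower, whose values the selection used. The median log2 ratio over all genes compared was -0.17, and scaling to the median of the gene ratios instead gave 184 genes higher and 69 lower. Of the genes counted as higher, 76 were under 50 CPM at E4, and 68 of those counted as lower were under it at E6, so these entered the comparison through the stage where they were high. In the other cells, 103 of the same 3250 genes were higher at E6 and 71 lower. Of these, 49 were also among the 126 and 25 among the 104, and the shared libraries bear on both.

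UMIs of MYOD1 and MYOG were found almost only at E6. MYOD1 (ENSGALG00000006216), which commits cells to muscle, had 1 UMI in the 63 E4 cells and 627 UMIs in the E6 cells. This is 3.04 CPM (0.077 to 17) against 616 (568 to 666), a ratio of 202 with a counting interval of 36.2 to 8002. It was found in 55.5% of the muscle-lineage cells at E6, against 0.601% of the other cells, whose median depth was 2220 UMIs. At an equal depth of 1500 UMIs, 43.7% of the E6 cells and 0 of the E4 cells held it. MYOG (ENSGALG00000000172) had 0 UMIs at E4, which was set to a floor of 3 UMIs, or 9.13 CPM. At E6 it had 110 UMIs, or 108 CPM (88.8 to 130), at least 11.8-fold higher by that floor.

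Other factors of this list differed less between stages. MYF6, a myogenic regulatory factor, was at 57.8 CPM at E4 and 120 at E6, and MYF5, by which cells were selected, at 39.6 and 141. The E proteins that pair with them were level between stages, TCF12 with 916 and 1200 CPM and TCF3 with 280 and 230. CSRP2, a LIM protein, was at 94.4 and 228, and was not past the fold among E6 cells with a Wpkci-7 UMI (log2 ratio 0.68). Of 6 genes compared on the list of myogenic regulatory factors and cofactors, 4 were at least 2-fold higher at E6 and 0 lower. Over all genes compared, 3.88% were higher. The median log2 ratio of the list was 1.16, against -0.17 over all genes. In the other cells 3 of the same 6 genes were higher as well, with a median of 2.79. These cells were set apart only by lacking a selecting UMI, so muscle cells in which such UMIs were missed are not excluded. In free RNA, the barcodes of few UMIs described below, MYOD1 was at 0 CPM at E4 and 45.1 at E6. Whether missed muscle cells or free RNA gave the values of the other cells was not tested. MYF6 met fold and intervals apart together under 11 of the 16 alternatives run. It was under the fold among cells with at least 5 selecting UMIs (log2 ratio 0.30).

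**Figure D2:**
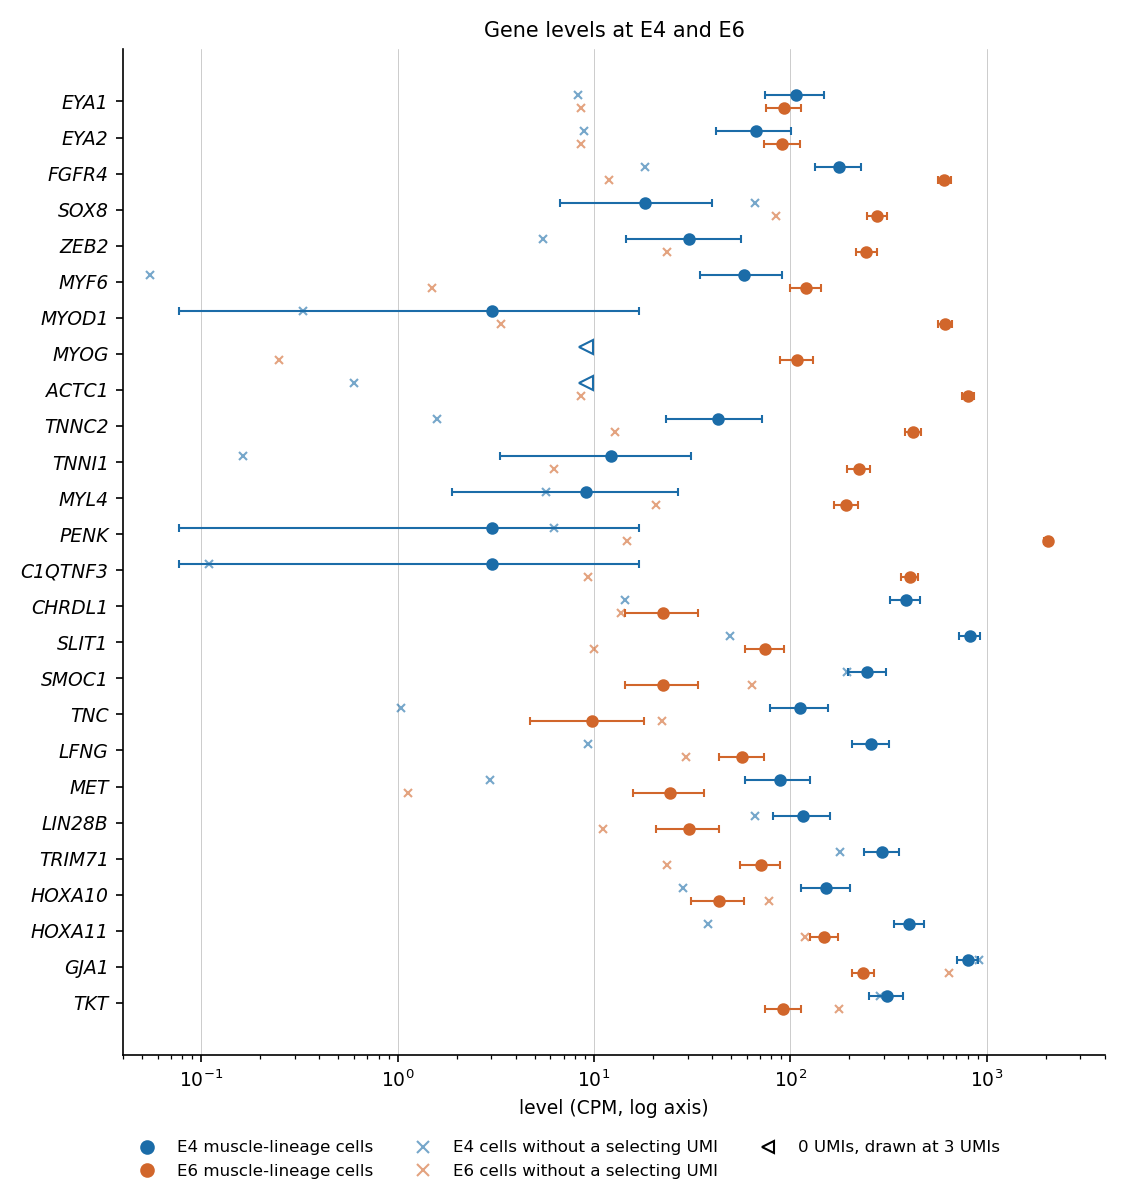
Levels of 26 genes in CPM on a log axis, in muscle-lineage cells (dots with exact Poisson 95% intervals) and in cells without a selecting UMI (crosses), at E4 (blue) and E6 (orange); open triangles mark 0 UMIs, drawn at the level of 3 UMIs. EYA1 and EYA2 lie within 2-fold between stages, MYOD1, MYOG, ACTC1 and PENK lie far higher at E6, and CHRDL1, SLIT1, SMOC1 and TNC far lower.

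Precursor factors split in direction. EYA1 (log2 ratio -0.19), EYA2 (0.45) and EYA3 (0.20) were within the fold, and the ratio of the levels of EYA1 had a counting interval of 0.589 to 1.33. SOX8, an SRY-box factor, was at 18.3 CPM at E4 and 278 at E6, and ZEB2, a zinc-finger repressor, at 30.4 and 245. In the other direction, MET, the receptor through which limb muscle precursors are guided into the limb, was at 88.3 and 24.5. DACH1, a nuclear cofactor that acts with EYA proteins, was at 97.4 and 33.4, and LMO4, a LIM-only cofactor, at 530 and 253. Among E6 cells with a Wpkci-7 UMI, DACH1 was not past the fold (log2 ratio -0.74). Of 8 genes compared on this list, 2 were at least 2-fold higher and 3 lower, with a median log2 ratio of 0.0033. The shares over all genes compared were 3.88% higher and 3.2% lower.

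Genes of this list under the level minimum had few UMIs. CXCR4, a chemokine receptor of migrating muscle precursors, had 18 UMIs at E4 and 5 at E6, which is 54.8 and 4.91 CPM. DACH2 had 22 and 4 UMIs. MEOX1, a somite homeobox gene, had 16 and 49, which is 48.7 and 48.1 CPM.

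Contractile genes at least 2-fold higher at E6 included an actin, troponins and a myosin light chain. ACTC1 (ENSGALG00000009844), the cardiac actin that embryonic skeletal muscle also expresses, had 0 UMIs at E4 and 821 at E6, or 806 CPM (752 to 863), at least 88.3-fold higher. Fast troponin C (TNNC2) was at 42.6 CPM at E4 and 423 at E6, slow troponin I (TNNI1) at 12.2 and 223, and fast troponin I (TNNI2) at 21.3 and 94.3. The atrial and embryonic myosin light chain MYL4 was at 9.13 and 193. Of 13 genes compared on the contractile list, 6 were at least 2-fold higher, 0 lower and 7 neither, and the median log2 ratio was 0.87. Over all genes compared, 3.88% were higher, with a median of -0.17. Of the same 13 genes, 6 were higher in the other cells as well, with a median of 0.63. Whether missed muscle cells or free RNA gave the values of the other cells was not tested here either.

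The remaining contractile genes are also expressed outside muscle or differed less. TPM1 was at 173 CPM at E4 and 294 at E6, and TPM3 at 393 and 348. MYH10, a non-muscle myosin, was at 968 and 563. In free RNA, the barcodes with 20 to 100 UMIs, ACTC1 was at 232 CPM at E6 and 0 at E4. ACTC1 was found in 20.8% of the E6 muscle-lineage cells and in 1.92% of the other cells.

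Of 4 genes compared on the list of fusion and the neuromuscular junction, 1 was at least 2-fold higher at E6 and 0 lower, with a median log2 ratio of 0.12. Of 4 genes of the dystrophin complex and muscle membrane, 2 were higher and 0 lower, with a median of 0.97. Over all genes compared, 3.88% were higher and 3.2% lower. MYMK, the membrane protein of myoblast fusion, had 0 UMIs at E4 and 70 at E6, at least 7.53-fold higher. RAPSN, which clusters acetylcholine receptors, had 1 and 79 UMIs, a ratio of 25.5 with a counting interval of 4.44 to 1019. CHRNG, the embryonic acetylcholine receptor subunit, had 0 and 26. All 3 were under the level minimum. JAM3, an adhesion molecule, was at 110 CPM at E4 and 300 at E6, and dystrophin (DMD) at 82.2 and 254. The laminin receptor subunit ITGA6 was at 24.3 and 85.4, whereas its partner ITGB1 was at 490 and 345.

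The highest ratio belonged to a neuropeptide gene. PENK (ENSGALG00000015419), which encodes the precursor of enkephalins, had 1 UMI at E4 and 2082 at E6. This is 3.04 CPM (0.077 to 17) against 2044 (1958 to 2134), a ratio of 672 with a counting interval of 120 to 26544. It was found in 51.9% of the E6 cells, and the cell richest in it held 4.76% of its UMIs. In the other cells PENK was at 6.28 and 14.8 CPM. C1QTNF3, a secreted C1q and TNF-related protein, had 1 and 414 UMIs, or 3.04 and 407 CPM, against 0.109 and 9.38 in the other cells. It lies on the Z chromosome, and its log2 ratio was 5.52 among E6 cells with a Wpkci-7 UMI.

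Other genes with the highest ratios were of several functions. BHMT2, a methyltransferase of homocysteine, was at 12.2 CPM at E4 and 217 at E6, against 4.10 and 4.13 in the other cells. WIPF1, an actin regulator, was at 27.4 and 177, and SPTB4L at 24.3 and 223. The transcription factors EBF3 (21.3 and 192 CPM) and NFIB (21.3 and 179) were higher too, and NFIB was also higher in the other cells, by 3.05 on the log2 scale. BHMT2 and NFIB are Z-linked. EBF3 fell under the fold when cells were chosen after thinning, with a minimum of 2 selecting UMIs (log2 ratio 0.78).

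Within E6, the muscle-lineage cells were divided by MYOD1 and MYOG, neither of which selected them. No UMI of either was found in 121 of the 283 cells (42.8%, 36.9 to 48.7%), MYOD1 without MYOG in 113 (39.9%) and MYOG in 49 (17.3%). At E4 the first group held 62 of 63 cells. A PAX7 UMI was found in 62.0% of the cells without either, in 56.6% of those with MYOD1 alone and in 18.4% of those with MYOG. PAX7 and MYOD1 occurred together in 71 cells at E6 (25.1%), and PAX7 and MYOG in 9 (3.18%). These groups had median depths of 3513, 3435 and 3110 UMIs, and a cell in which a low transcript was missed falls into the first. The selecting gene RBM24 was at 323, 1017 and 3719 CPM in the 3 groups. The shares of the 3 groups, and the PAX7 percentages in them, are thus not independent of the selection.

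The E6 cells without MYOD1 or MYOG differed from E4 cells in several of the same genes. FGFR4 was at 551 CPM in them, against 657 with MYOD1 alone, 651 with MYOG and 170 in the E4 cells without either. ZEB2 was at 275, 223 and 215, against 27.9. For both genes the E6 groups lay close together and all of them lay above E4.

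C1QTNF3 and SOX8 ran in opposite directions across the E6 groups. C1QTNF3 was at 524 CPM in cells without MYOD1 or MYOG, 403 with MYOD1 alone and 78.2 with MYOG (40.4 to 137). SOX8 was at 183, 289 and 521. Both were above their E4 levels of 3.10 and 18.6 in all 3 groups.

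Other genes were highest in the cells with MYOG. PENK was at 169 CPM without MYOD1 or MYOG, 1451 with MYOD1 alone and 9086 with MYOG, and its intervals did not meet. SPTB4L was at 56.4, 104 and 1029, and its log2 ratio to E4 was 1.19 when cells with MYOD1 or MYOG were left out, against 3.19 with them. ACTC1 was at 273, 135 and 4188. JAM3 was at 124, 194 and 1101, and without the MYOD1 and MYOG cells its log2 ratio to E4 was 0.15, under the fold. The creatine kinase gene CKB was at 361, 775 and 3458 CPM, against 530 at E4. CDKN1B, an inhibitor of the cell cycle, was at 106, 114 and 541, against 99.1 at E4. The interval of CDKN1B lay above that at E4 only in the cells with MYOG. The intervals of JAM3 and CKB lay above those at E4 both with MYOD1 alone and with MYOG.

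A selection by PAX7 alone, which does not use TCF15 or RBM24, reversed 0 of the named genes. It took 43 cells at E4 and 197 at E6, of which 32 and 148 were muscle-lineage cells as well. PAX7 is also a selecting gene, so this selection is not independent of the main one. Over all cells with a PAX7 UMI, the log2 ratio was 1.72 for FGFR4, and at least 5.03 for PENK, 5.14 for C1QTNF3 and 4.07 for ACTC1, which had 0 UMIs in such cells at E4. It was -3.74 for CHRDL1, -3.85 for SLIT1, -2.65 for SMOC1 and -4.07 for TNC. Of the 79 named genes, 58 still differed at least 2-fold with intervals apart. JAM3 (0.55), ITGA6 (0.77), SLIT2 (-0.82) and MYOG, with a lower bound of 0.61, were under the fold, and the intervals of SPTB4L (1.33) met.

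**Figure D3:**
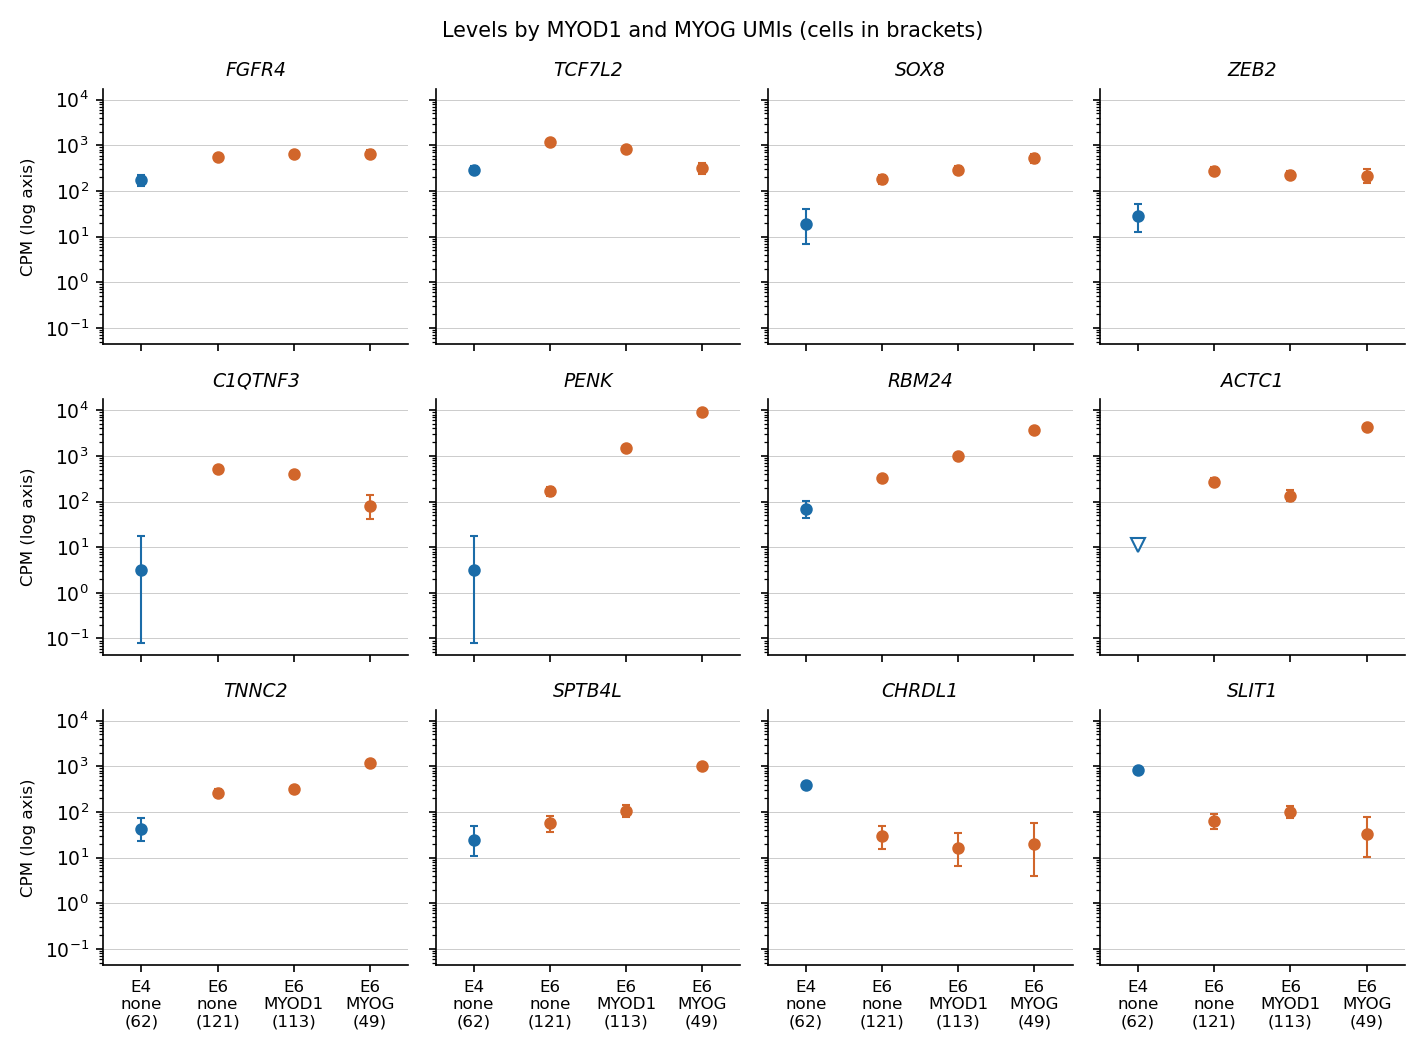
Levels of 12 genes in CPM on a log axis, with exact Poisson 95% intervals, in muscle-lineage cells without a MYOD1 or MYOG UMI at E4 (blue, 62 cells), and at E6 (orange) without either (121 cells), with MYOD1 but not MYOG (113 cells) and with MYOG (49 cells); the open triangle is the upper limit of a gene at 0 UMIs. PENK ran from 169 to 9086 CPM across the E6 groups, FGFR4 stayed between 551 and 657, and CHRDL1 was under 30 in all of them against 381 at E4.

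CHRDL1, SLIT1 and SMOC1 had the lowest ratios among genes with a mean of at least 100 CPM. CHRDL1 (ENSGALG00000008072), a secreted BMP antagonist, was at 387 CPM at E4 (322 to 460) and 22.6 at E6 (14.3 to 33.9). It was found in 60.3% of the E4 cells and 6.36% of the E6 cells (38.1% and 1.12% at 1500 UMIs), against 3.28% and 2.40% of the other cells. SLIT1 (ENSGALG00000042871), a secreted ligand of ROBO receptors, was at 819 (724 to 923) and 74.6 (58.8 to 93.4). SMOC1, a matricellular BMP modulator that the study lists as a marker of an E4 CT cluster, was at 247 and 22.6. All 3 were at least 2-fold lower under each of the 16 alternatives run, and they were low in each of the E6 groups, with CHRDL1 at 29.3 CPM, SLIT1 at 63.2 and SMOC1 at 31.6 without MYOD1 or MYOG. In the other cells CHRDL1 was level, at 14.4 and 13.8, and SLIT1 was lower at E6 as well, at 49.3 and 10.0.

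Further genes were lower at E6. The gap junction gene GJA1 was at 804 CPM at E4 and 235 at E6, and the pentose phosphate enzyme gene TKT at 310 and 92.3. JARID2, a partner of the PRC2 complex, was at 189 and 44.2, and the nuclear receptor cofactor gene NRIP1 at 231 and 74.6. RBP5, a retinol-binding protein, was at 247 and 95.3, and RDH10, which oxidises retinol, at 88.3 and 17.7. DDT, METRNL, TPST1 and CADM1 completed the 15 lowest of that ranking, with log2 ratios between -1.58 and -1.28. In the E6 cells with a Wpkci-7 UMI, GJA1 (log2 ratio -0.98), JARID2 (-0.70), METRNL (-0.12) and TPST1 (-0.18) were not past the fold.

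Of the heterochronic genes, which time development and are themselves repressed as it proceeds, LIN28B and TRIM71 were lower at E6. LIN28B was at 116 CPM at E4 and 30.4 at E6, and TRIM71, an RNA-binding ubiquitin ligase, at 292 and 70.7. IGF2BP3 was at 1324 and 926. Of 5 genes compared on this list, 2 were at least 2-fold lower and 0 higher, with a median log2 ratio of -0.71. The list also holds MYC and MYCL, to which the description above does not apply, and the median is the value of MYC. Over all genes compared, 3.2% were lower. In the other cells 4 of the 5 were lower, with a median of -1.33.

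HOX genes, which pattern the limb along its axis, differed in direction. Those above the level minimum were lower at E6 or within the fold, while genes under it went both ways. HOXA10 was at 152 CPM at E4 and 43.2 at E6, and HOXA11 at 405 and 149. HOXA4, HOXA5, HOXA6, HOXA7 and HOXA9 had log2 ratios between -0.98 and -0.14. Of 7 genes compared, 2 were lower and 0 higher, with a median log2 ratio of -0.74, while 3.2% of all genes compared were lower. Under the level minimum, HOXA13 had 1 UMI at E4 and 88 at E6, HOXD12 3 and 73, and HOXD13 0 and 39, whereas HOXB5 had 16 and 0. In the other cells HOXA13 was at 1.97 and 194 CPM, HOXD12 at 101 and 514 and HOXD13 at 24.5 and 288, so for these 3 the E6 levels in muscle-lineage cells lay below those around them. Whether free RNA gave these UMIs was not tested.

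Signalling genes were mixed, with few members above the level minimum. Of all genes compared, 3.88% were higher at E6 and 3.2% lower. Among FGF receptors and feedback genes, FGFR4 (log2 ratio 1.79) and the feedback inhibitor SPRY2 (24.3 and 116 CPM) were higher, FGFR1 was level at 107 and 107, and 3 of 5 were not past the fold. FGFR4 was not past it among E6 cells with a Wpkci-7 UMI (0.78). Among Notch genes, the receptors NOTCH1 (60.9 and 207 CPM) and NOTCH2 (63.9 and 155) were higher. LFNG, the glycosyltransferase that modifies Notch receptors, was lower (259 and 57.0), and was not past the fold among E6 cells with a Wpkci-7 UMI (log2 ratio -0.78). Of the BMP pathway and ID genes, ID2 was higher (155 and 341), CHRDL1 lower, and 6 of 8 neither. ID2 was not past the fold without the cells that held a CT marker UMI (log2 ratio 0.85). ID1 was at 201 and 245 and ID3 at 405 and 447. TCF7L2, a transcription factor of the WNT pathway that also marks limb CT, was at 286 and 900. It was found at 1176 CPM in the E6 cells without MYOD1 or MYOG and at 319 in those with MYOG. Among E6 cells with a Wpkci-7 UMI, TCF7L2 was not past the fold (log2 ratio 0.63).

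Guidance, matrix and adhesion genes followed no common direction. SEMA6A, a transmembrane semaphorin on the Z chromosome, was at 9.13 CPM at E4 and 97.2 at E6, while SLIT1 and SLIT2 (161 and 69.7) were lower and the receptor ROBO1 was at 94.4 and 53.0. Of 12 basement membrane and matrix genes, COL1A2, COL5A1 and THBS4 were higher and tenascin C (TNC) lower, with a median log2 ratio of 0.06. Of all genes compared, 3.88% were higher and 3.2% lower, with a median of -0.17. In the other cells 7 of the 12 were higher, with a median of 1.56. COL1A2 (0.28) and COL5A1 (0.42) were not past the fold in cells without a UMI of the 5 CT markers, and THBS4 (0.13) was not among E6 cells with a Wpkci-7 UMI. N-cadherin (CDH2) was at 314 and 301, while in the other cells it was at 82.3 and 333.

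Cell cycle, glycolysis and ribosome genes differed by less than 2-fold with few exceptions. Of 24 S phase genes, CDC45 and SLBP were lower, and of 33 genes of the G2 and M phases, CENPF and GTSE1 were lower. Each of the 4 met fold and intervals apart together under 6 to 10 of the 16 alternatives. The medians of these lists were -0.58 and -0.37. TOP2A, a topoisomerase of dividing cells, was at 539 CPM in E6 cells without MYOD1 or MYOG and at 267 in those with MYOG, against 703 at E4. Of 14 glycolysis genes 0 were past the fold, with a median of -0.61, and of 22 nucleolar genes 0, with a median of -0.32. Oxidative phosphorylation genes had a median of 0.01 over 31 genes, with NDUFS6 higher, and ribosomal protein genes 0.18 over 65, with RPL17 higher. Of 10 genes known to respond to cell dissociation, JUN was higher and HSPH1 lower. The shares over all genes compared were 3.88% higher and 3.2% lower, with a median log2 ratio of -0.17.

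**Figure D4:**
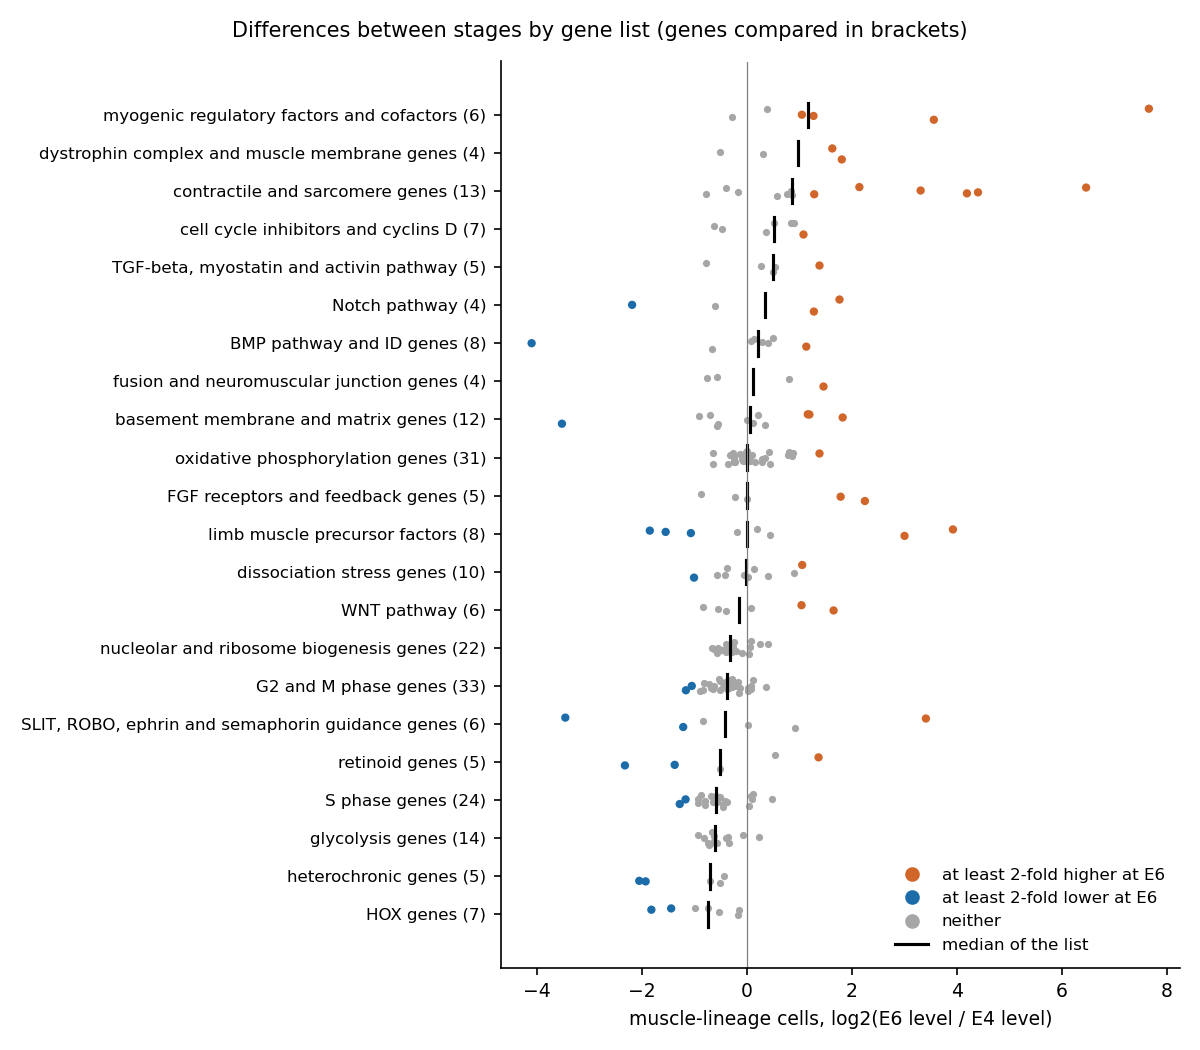
Log2 ratio of the E6 to the E4 level in muscle-lineage cells for the genes compared of each list (dots, vertically spread for sight; orange at least 2-fold higher, blue at least 2-fold lower, grey neither), with the median of each list (black bar). The medians run from 1.16 for myogenic regulatory factors and cofactors to -0.74 for HOX genes, and precursor factors hold 2 genes at least 2-fold higher and 3 lower.

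A list that the study drew as muscle markers from these libraries is not independent evidence of direction. Of 62 of its genes outside the selection, 19 were at least 2-fold higher at E6, 14 were lower and 29 neither, with a median log2 ratio of -0.07. Over all genes compared, 3.88% were higher and 3.2% lower. The genes of this list with the lowest and highest ratios were CHRDL1 and PENK, given above.

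A set of 6 genes was lower at E6 in muscle-lineage cells and higher in the other cells, each at least 2-fold. Over all 3250 genes compared, 104 were lower in muscle-lineage cells (3.2%) and 103 were higher in the other cells. All 6 are among the E4 muscle markers that the study drew from the same library. HOXA10 and HOXA11 are also among the study's markers of an E4 CT cluster. TNC was at 113 CPM at E4 (37 UMIs) and 9.82 at E6 (10 UMIs), against 1.04 and 22.1 in the other cells. HOXA10 and HOXA11 were 28.3 and 37.9 CPM in the other cells at E4 and 78.4 and 119 at E6, and LFNG was at 9.34 and 29.5, SLIT2 at 19.3 and 45.1 and WNK2, a kinase, at 12.5 and 28.5.

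**Figure D5:**
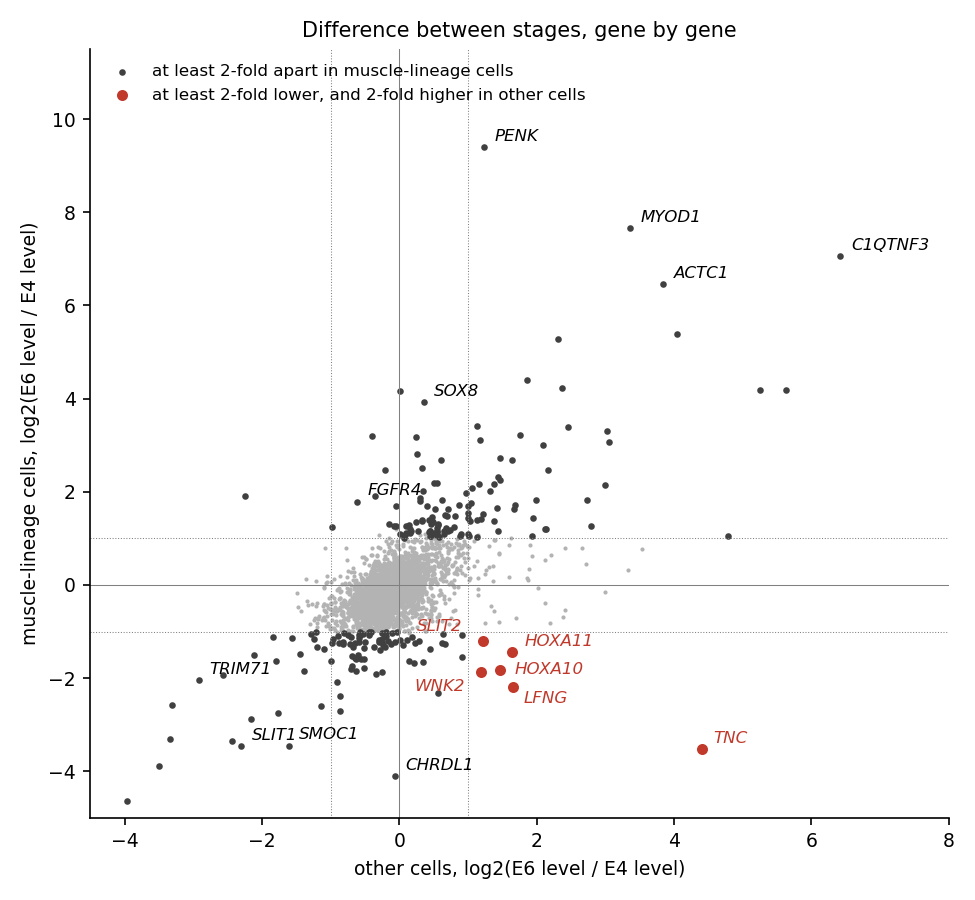
Log2 ratio of the E6 to the E4 level of each gene compared, in muscle-lineage cells (vertical) against cells without a selecting UMI (horizontal). Dark dots are genes at least 2-fold apart in muscle-lineage cells. Red dots are the 6 described as lower at E6 in them and at least 2-fold higher in the other cells. Dotted lines mark 2-fold, and genes with at most 3 UMIs in the other cells at both stages are not drawn. TNC lies at -3.52 and 4.41, farthest to the lower right of the 6.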

How the data were processed

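Single-cell RNA-sequencing of chicken forelimb cells used 1 library for each of E4, E6 and E10, made with the 10x Chromium 3′ kit. The deposited files hold whole UMI counts per gene and barcode without any filter, the output of STAR alignment to GRCg6a in Cell Ranger (version 3.0.2 per the file headers) as the authors ran it. Cell labels, quality filters and doublet removal of the study are not in these counts, and E10 was not used here. Doublets were kept in the main comparison. Removing the highest Scrublet scores, 0.8% per 1000 cells, took out 4 muscle-lineage cells at E4 and 10 at E6.

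UMIs were summed over the selected cells of a stage and scaled to counts per 1000000 UMIs (CPM) without Wpkci-7, NIPBLL and SPIN1W. 1 UMI is then 3.04 CPM at E4 and 0.982 at E6. A gene at 0 UMIs was set to a floor of 3 UMIs, so its ratio is a lower bound. Levels have exact Poisson and shares exact binomial (Clopper-Pearson) 95% intervals. PCR and sampling of embryos are not covered by them. For thinning, UMIs of a cell were drawn at random, each at most 1 time. In bulk sums of this kind, fewer cells with a transcript and less of it per cell cannot be told apart. Genes were named when they selected the cells, stood on the gene lists, or were among the 15 highest or 15 lowest ratios with a mean of at least 100 CPM. The cells and lists were chosen with earlier results of these data known. Of the Ensembl identifiers without a name, 29 were named from the study's marker table, and chromosomes came by symbol from the RefSeq table of GRCg7b (2799 of 3250 genes matched). The scripts were tested on simulated data and ran with scanpy 1.11.5, scipy 1.17.1, numpy 2.4.6, matplotlib 3.10.9, pandas 2.3.3 and Python 3.11.15. Alternatives were run for the selection, depth, doublets, filters, scaling, weighting and thresholds. Some genes of the lists are not reported here. TNC, LFNG, HOXA10, HOXA11, SLIT2 and WNK2 are all listed by the study among its E4 muscle markers. WNK2 was singled out after its values were seen.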

Additional observations from a re-analysis of the deposited data

Results flagged for a closer look

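6 genes were at least 2-fold apart between stages in opposite directions, lower at E6 in muscle-lineage cells and higher in the other cells. Over all 3250 genes compared, 104 were lower in muscle-lineage cells (3.2%) and 103 were higher in the other cells. Whether 6 exceeds the overlap that these shares give was not tested. The difference itself was not tested, since each stage has 1 library, and no explanation was weighed. As the log2 ratio of E6 to E4 in muscle-lineage cells minus that in the other cells, it was -7.93 for TNC, -3.84 for LFNG, -3.29 for HOXA10, -3.08 for HOXA11, -3.06 for WNK2 and -2.43 for SLIT2. The study lists all 6 as markers of its E4 muscle cluster, drawn from the same E4 library. Their higher E4 level in muscle-lineage cells than in the other cells is thus not an independent result. HOXA10 and HOXA11 are also listed by the study as markers of an E4 CT cluster. TNC rested on 37 UMIs at E4 and 10 at E6. Among E6 cells with a Wpkci-7 UMI, LFNG (log2 ratio -0.78) and SLIT2 (-0.62) were not past the fold, while TNC was past it under each of the 16 alternatives. Fold and intervals apart together were met by LFNG under 15 of them, by HOXA10, HOXA11 and WNK2 under 14 each, and by SLIT2 under 11. With a minimum of 2 selecting UMIs, HOXA11 (-0.99) and SLIT2 (-0.78) fell under it.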

How the results depend on the processing

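With 1 library a stage, nothing could be left out, and no paired analysis was possible because each stage has 1 library and no replicate. Shares of muscle-lineage cells at E4 and E6 were 1.22% and 7.20% in the main comparison. They were 2.21% and 9.16% with a minimum of 2 selecting UMIs, and 0.640% and 4.35% with 5. Choosing cells after thinning to 1000 UMIs, with the minimum lowered to 2 selecting UMIs, gave 0.524% and 4.55%. Without cells holding a CT marker UMI the shares were 0.776% and 4.28%, and for all cells with a PAX7 UMI 0.834% and 5.01%. The E6 share was 3.08% without MYOD1 or MYOG cells and 10.3% with 2000 UMIs required. The counts of genes at least 2-fold higher and lower were 126 and 104. Past 1.5 times these were 62 higher when cells were thinned, 69 lower with median-ratio scaling (184 higher), 215 and 171 at a level minimum of 20 CPM, 59 and 31 at 100, 60 and 35 at 3-fold, and 52 lower when only E6 cells with a Wpkci-7 UMI were used. That last alternative and leaving out Z-linked genes were chosen after seeing the data. The other alternatives gave 101 to 171 genes higher and 79 to 147 lower. Of 79 named genes past the fold with intervals apart, 21 met both under each alternative. Under each of the 15 planned ones that give gene ratios, 32 did, and 0 reversed. The 79 include the selecting genes CDH15, MYF5, RBM24 and TCF15, whose values the selection used. RBM24 and TCF15 are among the 21. What set the losses was not tested. Depth limits most genes under the level minimum, since 1 UMI is 3.04 CPM at E4.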
